A study of Tachysurus fulvidraco x Tachysurus vachelli with 6 samples.

Results

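The genes of glycolysis and gluconeogenesis were described in gills of young hybrid yellow catfish, with Tachysurus fulvidraco mothers and P. vachellii fathers. Members were all genes that the deposited annotation placed in the KEGG pathway of that name, 85 of 25792 genes. Of these, 75 had the product name of an enzyme or, in 2 cases, an uncharacterised product with an enzyme's KEGG entry, and 10 had the name of another protein and are given apart. Of the 85, 47 carried only a locus number and are named here by the product in the same table. RNA came from the second left gill in 2 groups of 3 libraries, from fish transported for 16 h and from untreated fish. All 6 libraries shared the hybrid cross, the juvenile stage and the tissue, and the labels do not say whether a library was made from 1 fish or from several. The p-values below therefore reflect how far these libraries spread, and some of that spread may be technical.

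Glycolysis splits glucose into pyruvate through a chain of enzymes in the cytosol and yields ATP without oxygen. Pyruvate then either enters the mitochondrion through the pyruvate dehydrogenase complex or is reduced to lactate by lactate dehydrogenase, which regenerates NAD+. Gluconeogenesis runs the chain backwards with enzymes of its own, mainly in liver and kidney. Many steps have several isoforms, of which one is typical of skeletal muscle, and teleost fish often keep extra copies of these genes. The gill spends energy on ion transport, and glucose and lactate from the blood are known fuels of it.

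Per library, the deposited table held 42962760 to 58495713 estimated counts. Levels below are the deposited FPKM (fragments per kilobase of gene model, scaled for library size), so they can be compared between genes, and transport was tested against control with edgeR across 20771 genes. A gene is said to have risen or fallen where its Benjamini-Hochberg adjusted p was under 0.05. Of the 30 genes on the gill epithelium and ionocyte marker list, 25 to 26 had at least 1 FPKM in each library. Their summed level was 6704 to 6796 FPKM in transport and 5706 to 7962 FPKM in control libraries. Single genes of this list did differ: of 28 tested, 2 rose and 4 fell, or 21.4%, against 6.69% of all genes tested. The summed level of 92 skeletal muscle marker genes was 636, 2158 and 3528 FPKM in transport libraries 1 to 3, and 3805, 806 and 823 FPKM in control libraries 1 to 3. Transport 2, transport 3 and control 1 thus stood apart, with more muscle marker RNA than the other 3 libraries. Of the muscle list, 6 genes were at 0 in every library, all of them copies of alpha skeletal actin. In bulk RNA, fewer cells of a type and less RNA per cell cannot be told apart.

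Transport left most transcripts of the pathway without a detected change. Of the 76 members that passed the filter on low counts, 8 changed, 1 higher and 7 lower. That is 10.5% of the members, against 6.69% of all genes tested (3.23% higher and 3.46% lower). Of the 67 tested members with an enzyme product, 1 rose and 5 fell. The median log2 fold change, transport over control, was -0.05 over the tested members and 0.00 over all genes tested. The groups did not overlap in FPKM for 29 members, 9 higher and 20 lower in transport, or 38.2%, against 32.7% of all genes (17.6% higher and 15.0% lower). The 9 members that were not tested included glucokinase, enolase 4 and a glucose-6-phosphatase-like copy, and none of the 9 had more than 0.26 FPKM in any library. Leaving out transport 2 reduced the members called to 0, and leaving out transport 1, transport 3, control 3 or control 2 reduced them to 1, 1, 2 and 3. At an unadjusted edgeR p under 0.05 there were 14 members without transport 2, against 22 of 76 with it. With all libraries, 5200 of the 20771 genes tested had such a p, so the share of members lay near that of all genes. Over all genes the calls fell from 1389 to 3 without transport 2, to 399 without transport 1 and to 162 without transport 3. Without control 3 or control 2 they fell to 379 and 941, so the loss of calls was not particular to the members.

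Of the 3 lactate dehydrogenase genes, 1 fell. The LDHA-like gene (LOC113660001), which encodes the subunit that favours making lactate from pyruvate, had 35.03, 31.07 and 31.04 FPKM in transport gills and 85.03, 59.03 and 56.86 FPKM in control gills. Every transport library was below every control library, and control 1 stood highest. It fell by 1.06 on the log2 scale (SE 0.16, edgeR adjusted p = 0.0201). Its ratio to ldhb was 0.232, 0.192 and 0.188 in transport libraries and 0.445, 0.376 and 0.336 in control libraries.

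The other lactate dehydrogenase genes did not pass the test. The gene ldhb, for the subunit typical of oxidative tissue, was the more abundant of the pair, with 150.67, 161.66 and 165.09 FPKM after transport and 191.08, 156.95 and 169.32 FPKM in controls. These groups overlapped, and the log2 difference was -0.13 (SE 0.10; edgeR, adjusted p = 0.473). A further B-type copy (LOC113659917) had 3.21 to 3.95 FPKM in transport and 4.75 to 5.72 FPKM in control libraries (log2 fold change -0.53, edgeR adjusted p = 0.134). LDHA-like transcripts made up 15.5 to 18.5% of the summed lactate dehydrogenase level after transport and 24.5 to 30.3% in controls.

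Several measurements bear on the LDHA-like value. Control 1, where the gene was highest, was also the library with the most muscle marker RNA. Transport 2 and 3 had more muscle marker RNA than transport 1 but less LDHA-like, with 31.07 and 31.04 against 35.03 FPKM. With a muscle score as covariate, the mean log2 level of the muscle markers in each library, the edgeR adjusted p was 0.0172. The call held without each control library in turn (edgeR adjusted p 0.0123 to 0.0405) and was lost without transport 1, 2 or 3 (0.0531, 0.124 and 0.0902). With control 1 and transport 3 both left out, an alternative chosen after the data were seen, the edgeR adjusted p was 0.0478. The gene lies at bases 1349555 to 1356436 of scaffold NW_020848036.1, minus strand, of the genome build used for the deposited table, and 504 bases at its 3′ end overlap the 3′ end of tsg101 on the plus strand. That neighbour had 13.03, 13.41 and 12.68 FPKM in transport and 16.57, 14.11 and 15.74 FPKM in control libraries (log2 fold change -0.26, SE 0.10, edgeR adjusted p = 0.161). The labels do not state a strand-specific kit, so reads of the shared stretch cannot be assigned to one gene.

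**Figure D1:**
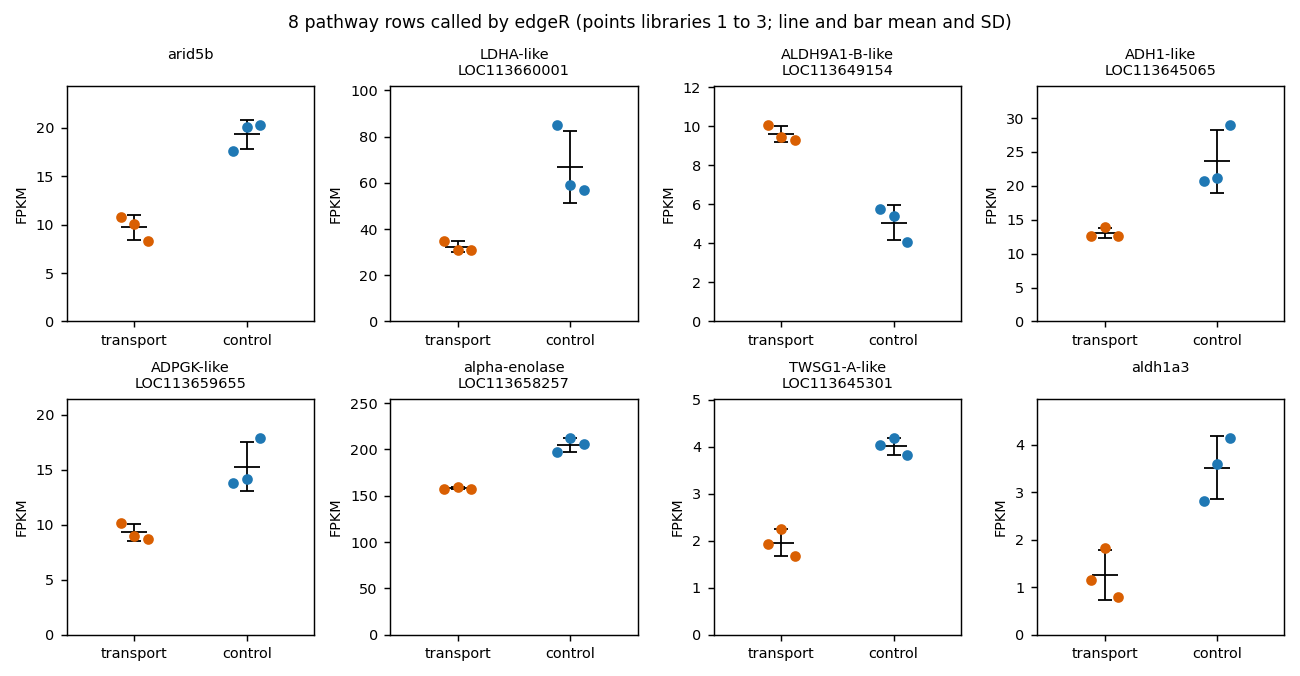
Deposited FPKM of the 8 pathway genes that passed the test, each point a library (1 to 3 from left to right within a group), with the mean and SD of 3 libraries as line and bar; transport is left of control and each axis starts at 0. The groups do not overlap in any panel, ALDH9A1-B-like is the one gene higher in transport, and LDHA-like in control 1 stands above its 2 fellow controls.

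Along the chain from glucose to pyruvate, 25 of 29 genes were tested, and 1 changed, against 6.69% of all genes tested. A set of this size may hold only 1 call at that share. The groups did not overlap for 8 of the 25, 3 higher and 5 lower in transport, against 32.7% of all genes tested. An unadjusted edgeR p under 0.05 was found for 4 of the 25, against 5200 of 20771 genes. The gene called was alpha-enolase (LOC113658257), the most abundant enolase, which makes phosphoenolpyruvate. It had 157.02, 159.61 and 157.85 FPKM in transport gills and 196.80, 212.08 and 205.68 FPKM in control gills. The libraries of each group lay close together and the groups were well apart. It fell by 0.39 on the log2 scale (SE 0.08, edgeR adjusted p = 0.0377), and the call was lost without control 2, control 3, or transport 1, 2 or 3 (edgeR adjusted p 0.0645 to 0.184). Its ratio to GAPDH 2 (LOC113649810), a gene with higher levels in every transport than in every control library, was 0.539, 0.526 and 0.517 in transport and 0.786, 0.757 and 0.826 in control libraries. With one gene lower and the other higher in every transport library, this ratio had to separate the groups and adds no support to the call.

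An enolase-like gene (LOC113642811) lay just outside the threshold in the other direction. It had 11.94, 13.95 and 12.40 FPKM in transport and 5.67, 8.57 and 7.89 FPKM in control libraries, with no overlap between groups. The log2 fold change stood at 0.77 (SE 0.19, edgeR adjusted p = 0.0586), and with the muscle score as covariate the edgeR adjusted p was 0.0478. The fit with the score called 1643 of all genes, against 1389 without it.

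The entry steps of glycolysis had no gene called by edgeR among 9 tested, against 6.69% of all genes tested. A set of this size may hold no call at that share. Of the 9, 1 had an unadjusted edgeR p under 0.05, against 5200 of 20771 genes tested. DESeq2 called 1, against 17.5% of all genes it tested. Hexokinase traps glucose in the cell as its phosphate, and the most abundant hexokinase was the hexokinase-2-like gene (LOC113657219), with 29.65 to 32.32 FPKM in transport and 27.36 to 33.96 FPKM in control libraries. The gene hk1 had 15.16, 17.51 and 17.82 FPKM after transport and 21.20, 20.29 and 21.94 FPKM in controls, without overlap (log2 fold change -0.35, SE 0.10, edgeR adjusted p = 0.0954). Glucokinase was at 0.09 FPKM or less in every library. Phosphofructokinase commits sugar to glycolysis, and its platelet-type gene pfkp had 15.46 to 15.59 FPKM in transport and 16.66 to 23.82 FPKM in control libraries (log2 fold change -0.32, SE 0.15, edgeR adjusted p = 0.245). The glucose-6-phosphate isomerase-like gene (LOC113660134) had 99.01 to 116.34 FPKM in transport and 89.25 to 96.79 FPKM in control libraries (log2 fold change 0.17, SE 0.10, edgeR adjusted p = 0.331).

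Of 12 tested genes of the middle and lower steps other than enolase, none was called by edgeR or DESeq2, and 1 had an unadjusted edgeR p under 0.05. Among all genes tested, edgeR called 6.69%, a share at which a set of 12 may hold no call. DESeq2 called 17.5% of all genes it tested. An unadjusted edgeR p under 0.05 was found for 5200 of 20771 genes. Aldolase cuts the sugar into trioses, and the aldolase C-like gene (LOC113646941) had 63.22 to 65.43 FPKM in transport and 71.28 to 75.43 FPKM in control libraries (log2 fold change -0.22, SE 0.08, edgeR adjusted p = 0.155). GAPDH 2, one of 2 genes for the step that yields NADH, had 291.37, 303.56 and 305.32 FPKM in transport and 250.37, 280.14 and 249.13 FPKM in control libraries, without overlap (log2 fold change 0.19, SE 0.09, edgeR adjusted p = 0.231). The kinase pgk1, which makes ATP, had 38.79 to 52.68 FPKM in transport and 49.65 to 57.17 FPKM in control libraries. The mutase pgam1 had 37.18 to 46.62 FPKM in transport and 38.77 to 42.86 FPKM in controls. For pyruvate kinase PKM (LOC113650766), the last step, the levels were 34.20 to 36.63 FPKM after transport and 37.36 to 47.56 FPKM in controls (log2 fold change -0.26, SE 0.12, edgeR adjusted p = 0.221). The plot of log2 fold changes by enzyme step sets these genes beside one another.

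**Figure D2:**
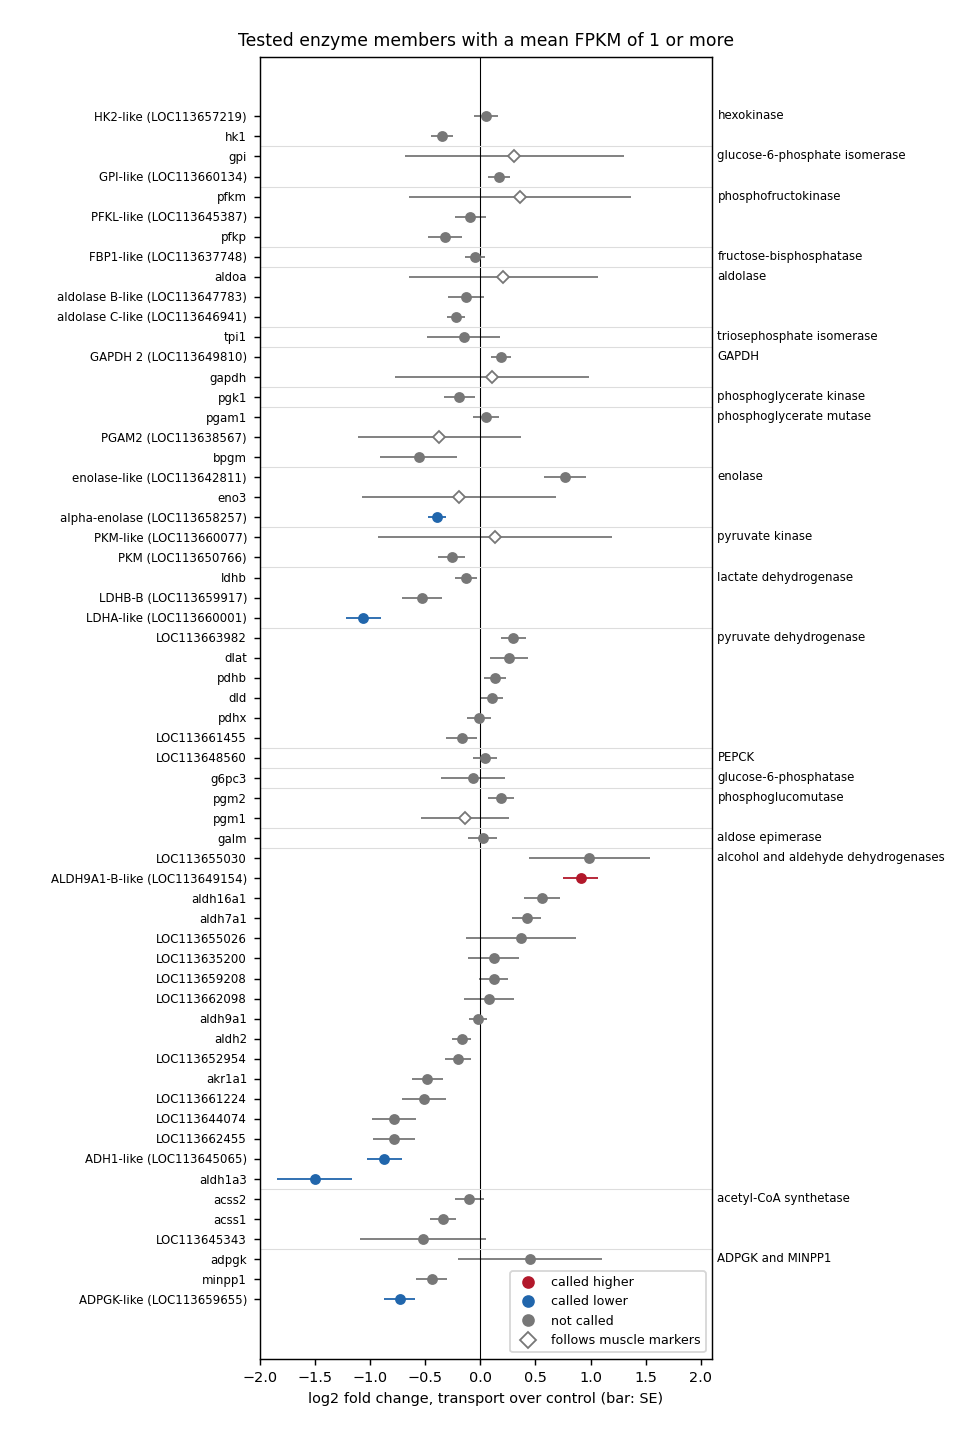
Log2 fold change (transport over control, x axis) with its SE as a bar for the 60 tested enzyme genes with a mean of at least 1 FPKM, ordered by enzyme step, which is named at the right. Red marks the 1 gene called higher, blue the 5 called lower, and open diamonds the 8 genes that follow the muscle markers, which have wide bars (SE 0.40 to 1.06).

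The 5 isoforms listed by name as muscle-type differed more between libraries of the same group than between groups. They were aldoa, eno3 (beta-enolase), pfkm, phosphoglycerate mutase 2 (LOC113638567) and a fructose-bisphosphatase 2-like gene (LOC113637689). The list was not complete: it left out the LDHA-like and PKM genes, although these enzymes are also known from mammalian muscle. Aldoa had 37.55, 176.66 and 312.16 FPKM in transport libraries 1 to 3, and 322.81, 64.69 and 67.11 FPKM in control libraries 1 to 3. Eno3 had 14.03, 52.86 and 92.77 FPKM in transport and 136.46, 26.70 and 18.36 FPKM in control libraries. Pfkm had 2.68, 16.27 and 29.08 FPKM in transport and 29.23, 4.72 and 3.29 FPKM in control libraries. In each, transport 2, transport 3 and control 1 were high and transport 1, control 2 and control 3 low, as in the muscle marker sums. None of the 5 passed the test by edgeR, by DESeq2 or at an unadjusted p under 0.05 (0 in each case), with log2 fold changes between -0.37 and 0.36 and SEs between 0.61 and 1.01.

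The same library pattern was found in genes outside that list of muscle-type isoforms. Members were asked, after their values had been seen, whether they were at least 2-fold higher both in control 1 than in the mean of controls 2 and 3 and in the mean of transport 2 and 3 than in transport 1. Among the 60 enzyme genes with a mean of at least 1 FPKM, 8 met this, among them aldoa, eno3, pfkm and phosphoglycerate mutase 2. The other 4 were gapdh, the glucose-6-phosphate isomerase gpi, a pyruvate kinase PKM-like gene (LOC113660077) and the phosphoglucomutase pgm1. Gapdh had 100.04, 458.13 and 763.10 FPKM in transport and 899.61, 166.66 and 152.38 FPKM in control libraries, and PKM-like had 2.39, 21.19 and 35.84 FPKM in transport and 42.47, 6.17 and 5.49 FPKM in control libraries. Of 71 muscle marker genes with values for both contrasts, 43 met the same 2-fold rule, without a minimum FPKM. The median log2 contrasts over all 71 were 1.85 in transport and 2.18 in control. For the remaining 52 enzyme genes the medians were 0.06 and -0.01. The contrasts set apart the libraries with high sums over the marker list, so a high share of markers was built in. The isomerase tpi1, which has 1 gene here, came close, with 81.59, 138.61 and 182.69 FPKM in transport and 202.95, 120.66 and 118.19 FPKM in control libraries. None of the 8 passed the test by edgeR, by DESeq2 or at an unadjusted p under 0.05 (0 in each case), and the groups overlapped for each. The rule picks genes that spread widely within both groups, so neither outcome tells whether transport changed them.

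**Figure D3:**
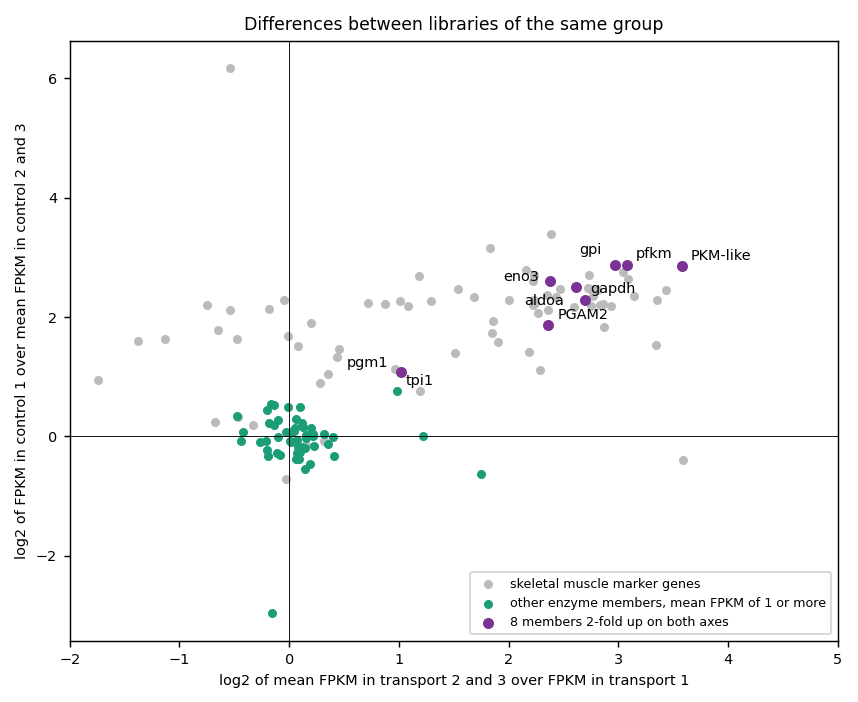
Differences between libraries of the same group for each gene: log2 of mean FPKM in transport 2 and 3 over transport 1 (x axis) and log2 of FPKM in control 1 over the mean of controls 2 and 3 (y axis). The 8 labelled enzyme genes in purple (1.02 to 3.58 on x, 1.08 to 2.87 on y) lie among the 71 grey muscle markers, tpi1 lies just short of them, and 49 of the 52 other enzyme genes (green) lie within 1 of zero on both axes.

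Which isoform led therefore depended on the library for GAPDH, aldolase, phosphofructokinase and pyruvate kinase. In the other steps with a gene that follows the muscle markers, the same isoform led in every library. Alpha-enolase, for example, made up 58.0 to 88.6% of enolase. Gapdh made up 25.6, 60.1 and 71.4% of the summed GAPDH level in transport libraries 1 to 3, and 78.2, 37.3 and 38.0% in control libraries 1 to 3. Aldoa made up 17.3, 49.9 and 65.8% of aldolase in transport and 59.6, 26.2 and 27.8% in controls. Summed over the 29 genes from glucose to pyruvate, levels were 1181, 1858 and 2414 FPKM in transport and 2676, 1405 and 1320 FPKM in control libraries. Without the 7 of them that follow the muscle markers, the 22 others summed to 1018, 1101 and 1129 FPKM in transport and 1180, 1123 and 1060 FPKM in controls. The remaining sums overlapped between the groups and averaged 1083 ± 57.5 FPKM after transport and 1121 ± 60.3 FPKM in controls (SD, n = 3 each).

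**Figure D4:**
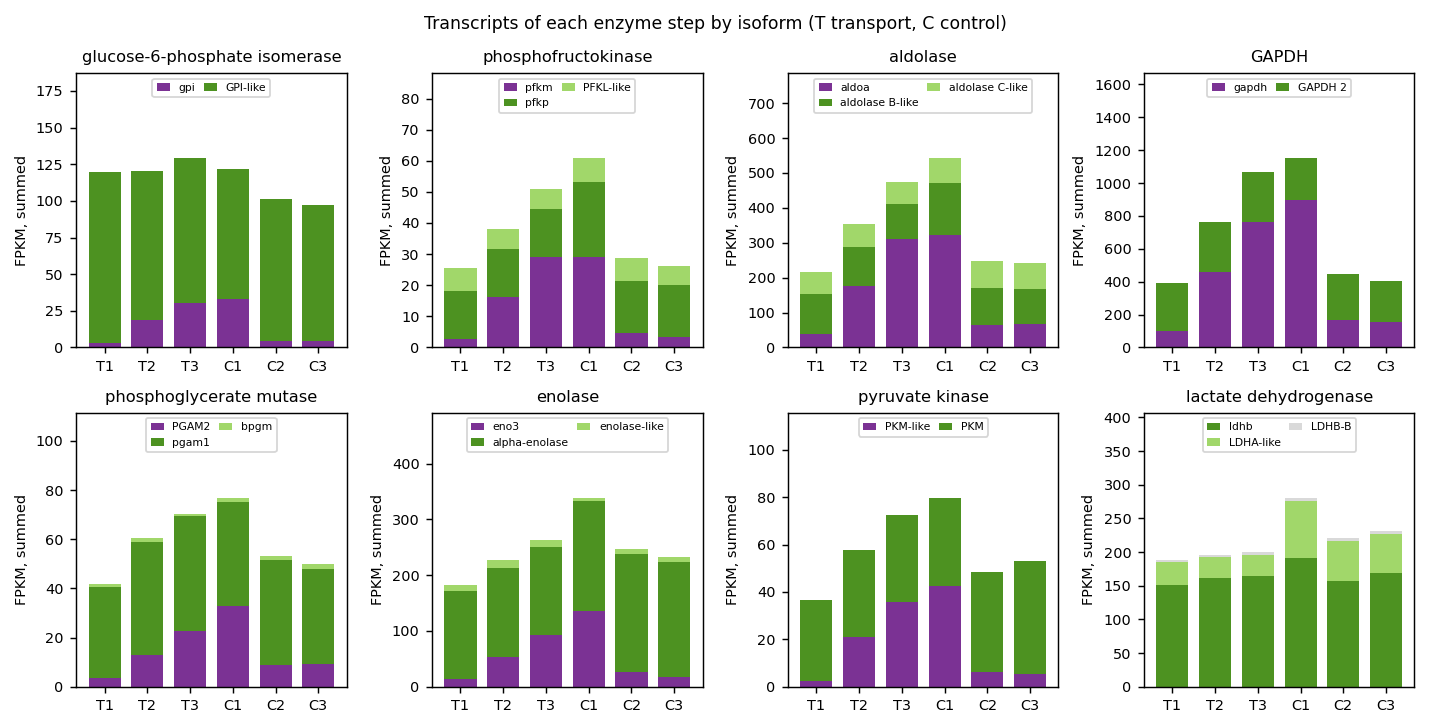
Deposited FPKM of the isoforms of 8 enzyme steps, stacked per library (T1 to T3 transport, C1 to C3 control), with genes of at least 1 FPKM on average; purple marks the genes that follow the muscle markers. The purple shares are large in T2, T3 and C1 and small in the other 3 libraries, while lactate dehydrogenase, with no purple gene, has a smaller LDHA-like share in all 3 transport libraries.

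Enzymes that carry pyruvate onward, make sugar or interconvert it had no gene called by edgeR or DESeq2 among 15 tested, and 1 with an unadjusted edgeR p under 0.05. Among all genes tested, edgeR called 6.69%, a share at which a set of 15 may hold no call. DESeq2 called 17.5% of all genes it tested, and 5200 of 20771 genes had an unadjusted edgeR p under 0.05. The pyruvate dehydrogenase complex, the gate to the citrate cycle, had 6 members, summing to 328, 345 and 378 FPKM in transport and 306, 347 and 322 FPKM in control libraries. Its most abundant gene was pdhb, with 130.78 to 146.23 FPKM in transport and 112.70 to 129.64 FPKM in controls (log2 fold change 0.13, SE 0.10, edgeR adjusted p = 0.479). An E1 alpha subunit gene (LOC113663982) had 30.01, 30.60 and 31.33 FPKM after transport and 26.29, 25.84 and 21.88 FPKM in controls (log2 fold change 0.30, SE 0.11, edgeR adjusted p = 0.141). The other, more abundant E1 alpha gene (LOC113661455) had 49.81 to 55.51 FPKM in transport and 48.18 to 67.56 FPKM in control libraries. Its groups overlapped (log2 fold change -0.17, SE 0.14, edgeR adjusted p = 0.523). Of the enzymes of gluconeogenesis, fructose-bisphosphatase 1-like (LOC113637748) had 50.19 to 53.06 FPKM in transport and 51.44 to 55.38 FPKM in control libraries. Cytosolic PEPCK (LOC113648560), which makes phosphoenolpyruvate from oxaloacetate, had 28.25 to 31.89 FPKM in transport and 26.54 to 31.50 FPKM in controls. Glucose-6-phosphatase, which releases free glucose, was low, with g6pc at 0.57 FPKM or less and g6pc3 at 3.37 to 6.87 FPKM across the 6 libraries. Pgm2, a phosphoglucomutase, had 7.57 to 8.82 FPKM in transport and 6.51 to 7.37 FPKM in control libraries, without overlap (log2 fold change 0.19, SE 0.12, edgeR adjusted p = 0.404). The epimerase galm, which interconverts the ring forms of glucose, had 12.04 to 14.48 FPKM after transport and 11.91 to 13.76 FPKM in controls.

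The alcohol and aldehyde dehydrogenases, the branch with the most members, had 3 called genes of 18 tested, 1 higher and 2 lower, or 16.7%, against 6.69% of all genes. The groups did not overlap for 10 of the 18, 3 higher and 7 lower in transport, or 55.6%. Over all genes tested this held for 32.7% (17.6% higher and 15.0% lower). The ALDH9A1-B-like gene (LOC113649154) had 10.06, 9.46 and 9.31 FPKM in transport gills and 5.74, 5.38 and 4.06 FPKM in control gills, each transport value above each control value. Its mammalian counterpart oxidises aminoaldehydes on the way to carnitine. It rose by 0.91 on the log2 scale (SE 0.16, edgeR adjusted p = 0.0286). Its paralog aldh9a1 was far more abundant, with 83.03 to 84.73 FPKM in transport and 81.34 to 87.31 FPKM in controls, and its log2 difference was -0.02 (SE 0.08, edgeR adjusted p = 0.893).

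The 2 that fell were an alcohol dehydrogenase and a retinal-oxidising enzyme. The alcohol dehydrogenase 1-like gene (LOC113645065) had 12.65, 13.93 and 12.59 FPKM after transport and 20.77, 21.16 and 28.98 FPKM in controls, and fell by 0.87 on the log2 scale (SE 0.16, edgeR adjusted p = 0.0306). Aldh1a3, which in mammals makes retinoic acid from retinal, was low, with 1.15, 1.83 and 0.79 FPKM in transport and 2.82, 3.60 and 4.14 FPKM in control libraries. It fell by 1.50 on the log2 scale (SE 0.34, edgeR adjusted p = 0.0490), and with the muscle score as covariate the edgeR adjusted p was 0.0564. Neither pair of groups overlapped. Leaving out 1 library ended these calls as follows. Aldh1a3 lost its call without any 1 of the 6 libraries (edgeR adjusted p 0.053 to 0.136), and the ALDH9A1-B-like gene without any but control 1 (0.052 to 0.139). The alcohol dehydrogenase 1-like gene lost it without control 3 or transport 1, 2 or 3 (edgeR adjusted p 0.0567 to 0.137).

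Another 5 genes of this branch had an adjusted p between 0.05 and 0.1, 3 with lower and 2 with higher levels in transport, without overlap between groups. The share of all genes in that band was not counted. At an unadjusted edgeR p under 0.05 there were 9 of the 18 genes of the branch, against 5200 of 20771 genes tested. A fatty aldehyde dehydrogenase-like gene (LOC113662455) had 2.84 to 3.17 FPKM in transport and 4.45 to 6.31 FPKM in control libraries (log2 fold change -0.78, edgeR adjusted p = 0.0564). With the muscle score as covariate its edgeR adjusted p was 0.0362. An uncharacterised oxidoreductase-like gene (LOC113644074) had 4.14 to 5.22 FPKM in transport and 6.55 to 8.34 FPKM in control libraries (log2 fold change -0.78, edgeR adjusted p = 0.0643). Akr1a1, an aldehyde reductase, had 17.56 to 19.67 FPKM after transport and 22.58 to 31.03 FPKM in controls (log2 fold change -0.48, edgeR adjusted p = 0.0929). Aldh16a1 had 18.58 to 27.27 FPKM after transport and 13.44 to 16.37 FPKM in controls (log2 fold change 0.56, edgeR adjusted p = 0.0802). Aldh7a1, which acts in lysine breakdown, had 44.68 to 57.50 FPKM in transport and 36.71 to 40.25 FPKM in controls (log2 fold change 0.42, edgeR adjusted p = 0.0932). The most abundant gene of the branch, mitochondrial aldh2, had 97.33 to 107.23 FPKM in transport and 106.31 to 122.04 FPKM in control libraries (log2 fold change -0.17, SE 0.09, edgeR adjusted p = 0.299). Acetyl-CoA synthetases turn acetate into acetyl-CoA, and none of their 3 genes was called by edgeR or DESeq2, with 1 at an unadjusted edgeR p under 0.05. A set of 3 is too small to compare with the 6.69% called by edgeR among all genes tested. Mitochondrial acss1 had 9.17 to 10.81 FPKM in transport and 11.71 to 13.92 FPKM in control libraries (log2 fold change -0.34, SE 0.12, edgeR adjusted p = 0.147).

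Of the remaining enzymes, an ADP-dependent glucokinase-like gene (LOC113659655) fell. This enzyme phosphorylates glucose with ADP in place of ATP. The gene had 10.19, 8.99 and 8.71 FPKM in transport gills and 13.77, 14.16 and 17.84 FPKM in control gills, without overlap, and fell by 0.73 on the log2 scale (SE 0.14, edgeR adjusted p = 0.0338). The call was lost without any 1 library other than control 1 (edgeR adjusted p 0.0537 to 0.163). Its paralog adpgk had 5.94, 5.19 and 5.47 FPKM after transport and 0.72, 6.18 and 5.06 FPKM in controls, with control 1 far below the other 5 libraries (log2 fold change 0.45, SE 0.65, edgeR adjusted p = 0.723).

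Another 2 members that fell are not enzymes of the pathway by their product names. The gene arid5b, a DNA-binding regulator of transcription, had 10.76, 10.10 and 8.30 FPKM in transport and 17.62, 20.11 and 20.30 FPKM in control libraries, and fell by 1.01 on the log2 scale (SE 0.13, edgeR adjusted p = 0.0123). Of the 8 members called, it was the one whose call held in the most fits with 1 library left out, all but that without transport 2 (edgeR adjusted p = 0.0946). A twisted gastrulation 1-A-like gene (LOC113645301), whose counterpart binds BMP proteins outside the cell, had 1.94, 2.26 and 1.68 FPKM in transport and 4.04, 4.18 and 3.82 FPKM in control libraries, and fell by 1.05 on the log2 scale (SE 0.23, edgeR adjusted p = 0.0430). Its call was lost without any 1 of the 6 libraries (edgeR adjusted p 0.064 to 0.148). The other 8 were SOGA, ARID5, LUC7L3, MTCL1 and ubiquitin-conjugating enzyme variant genes, of which 7 were tested and none was called.

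Genes that supply, regulate or drain glycolysis were given as 7 lists of 134 genes outside the pathway, of which 119 were tested. Of these, 12 changed, 9 higher and 3 lower, or 10.1%, against 6.69% of all genes tested. Without transport 2 or transport 3 edgeR called 0 of them (24 and 27 at an unadjusted p under 0.05), without transport 1 it called 1 and without control 3 it called 2. Over all genes these fits called 3, 162, 399 and 379 in that order, against 1389 with all libraries. The transporters of glucose and lactate had 1 gene higher and 1 lower among 21 tested, or 9.52% called, against the same 6.69%. A GLUT1-like glucose carrier (LOC113643039) had 45.83, 38.03 and 36.49 FPKM in transport and 64.23, 95.04 and 98.74 FPKM in control libraries, and fell by 1.12 on the log2 scale (SE 0.19, edgeR adjusted p = 0.0238). The carrier slc2a6 had 13.91, 12.02 and 9.84 FPKM after transport and 5.33, 6.72 and 7.06 FPKM in controls, and rose by 0.88 on the log2 scale (SE 0.18, edgeR adjusted p = 0.0372). Neither gene overlapped between groups, and control 1 was the lowest control for both. The GLUT1-like call held without control 1 but was lost without each other library (edgeR adjusted p 0.051 to 0.135), and that of slc2a6 was lost without any 1 library (0.059 to 0.162).

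Among regulators of glycolysis, 5 of 26 tested genes were higher and 2 lower, or 26.9% called. Over all genes tested 6.69% were called, 3.23% higher and 3.46% lower. PFKFB enzymes set the level of fructose 2,6-bisphosphate, the activator of phosphofructokinase. Pfkfb1 had 26.78, 28.21 and 33.82 FPKM in transport and 15.66, 14.94 and 16.44 FPKM in control libraries, and rose (log2 fold change 0.90, SE 0.13, edgeR adjusted p = 0.0164). Its call was lost without transport 2 or transport 3 (edgeR adjusted p = 0.0989 and 0.0586). Pfkfb3 rose too, at 4.35, 5.21 and 5.65 FPKM in transport and 2.92, 2.79 and 2.94 FPKM in controls (log2 fold change 0.79, SE 0.16, edgeR adjusted p = 0.0338). The other tested PFKFB genes were not called. Log2 fold changes were 0.07 for LOC113655176, 0.59 for LOC113661869, 0.34 for LOC113648554 and 0.11 for LOC113651648 (edgeR adjusted p = 0.883, 0.0602, 0.149 and 0.830 in that order).

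Pyruvate dehydrogenase kinases, which switch the complex off, went both ways. A PDK2-like gene (LOC113638998) had 13.65, 13.59 and 14.38 FPKM after transport and 4.33, 8.30 and 4.64 FPKM in controls, and rose (log2 fold change 1.25, SE 0.26, edgeR adjusted p = 0.0389). Pdk3 had 5.26, 4.50 and 4.75 FPKM in transport and 8.78, 6.80 and 7.06 FPKM in control libraries, and fell by 0.66 on the log2 scale (SE 0.14, edgeR adjusted p = 0.0423). The calls of pfkfb3 and pdk3 were lost without any 1 library, and that of PDK2-like without any but control 2 (edgeR adjusted p 0.0531 to 0.184 over these fits).

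Of 3 genes annotated as the hypoxia factor HIF-2 alpha, 2 rose. Epas1 had 109.67, 100.43 and 105.50 FPKM in transport and 67.45, 57.70 and 72.37 FPKM in control libraries, and rose (log2 fold change 0.66, SE 0.11, edgeR adjusted p = 0.0220). A second, EPAS1-like gene (LOC113653492) had 52.44, 54.03 and 58.25 FPKM after transport and 39.71, 38.89 and 35.13 FPKM in controls, and rose (log2 fold change 0.52, SE 0.09, edgeR adjusted p = 0.0288). A further EPAS1-like gene (LOC113643670) had 71.87, 80.25 and 81.49 FPKM in transport and 72.80, 94.63 and 81.54 FPKM in control libraries. These groups overlapped, and it was not called (log2 fold change -0.11, SE 0.12, edgeR adjusted p = 0.640). The 3 genes for HIF-1 alpha, the factor best known for inducing glycolytic genes in mammals, were not called (edgeR adjusted p = 0.431 for hif1a, 0.129 for LOC113644401 and 0.119 for LOC113662105). Their log2 fold changes were -0.15, -0.41 and 0.92 in that order. The groups overlapped for hif1a but not for LOC113644401, lower in transport, or LOC113662105, higher in transport. DESeq2 called LOC113662105 (adjusted p = 0.0383).

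A TXNIP-like gene (LOC113662807), whose mammalian counterpart restrains glucose uptake, had 557.97, 540.01 and 518.84 FPKM in transport and 726.41, 943.21 and 938.82 FPKM in control libraries. It fell by 0.71 on the log2 scale (SE 0.12, edgeR adjusted p = 0.0238), and control 1 was the lowest control, as for GLUT1-like. The summed level of 23 erythrocyte marker genes was 11991, 8745 and 5306 FPKM in transport libraries 1 to 3, and 7376, 14279 and 9077 FPKM in control libraries 1 to 3, so that control 1 was the lowest control there too. Its part in either result was not tested. Without transport 1, 2 or 3 the calls of epas1, LOC113653492 and TXNIP-like were lost, and the last 2 also without control 3 (edgeR adjusted p 0.0623 to 0.144 for these 2, and 0.0649 to 0.12 for epas1).

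**Figure D5:**
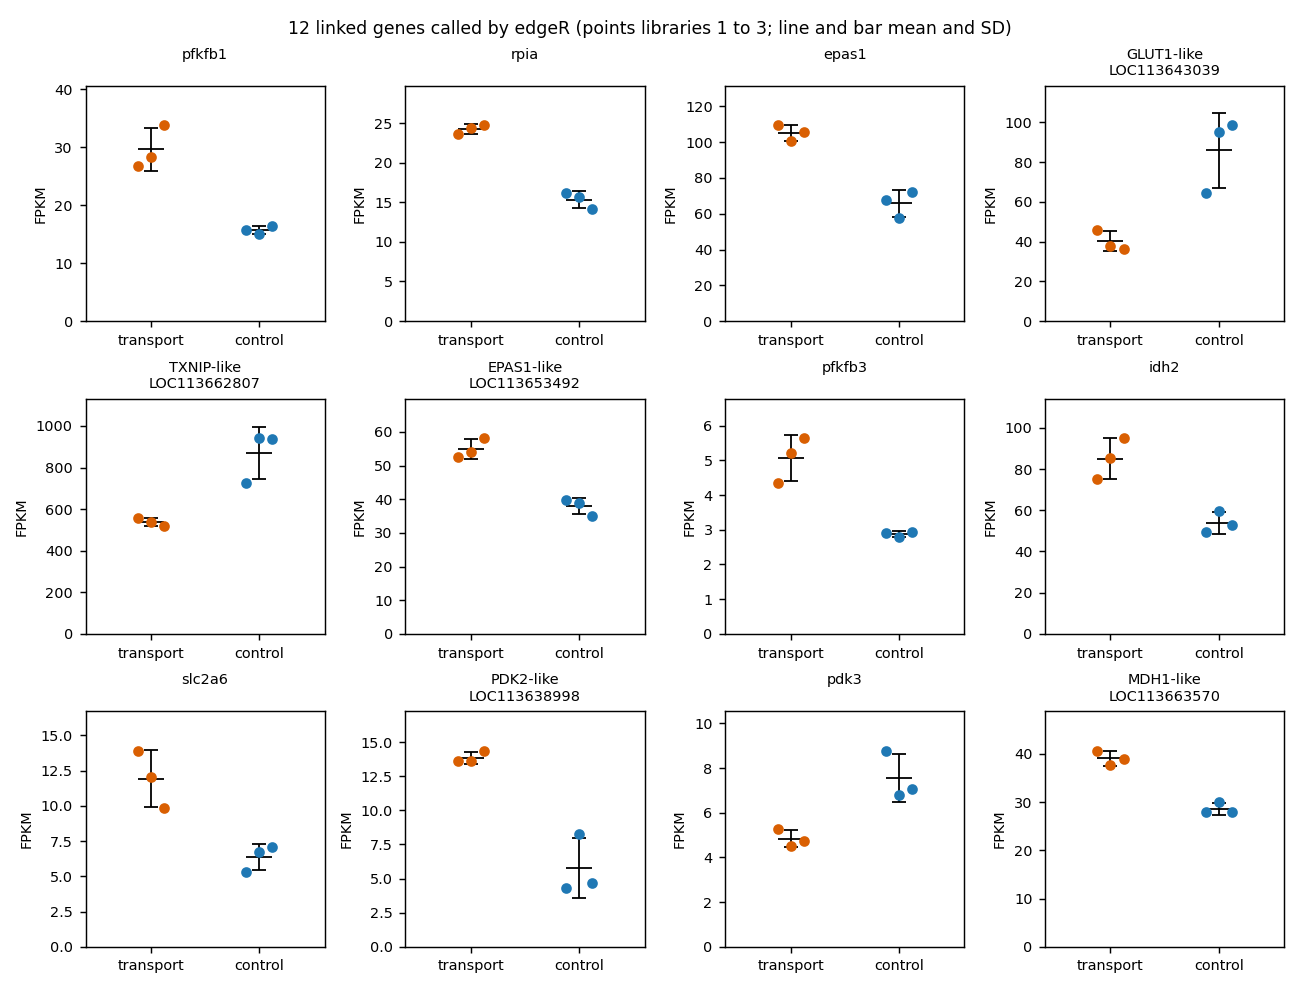
Deposited FPKM of the 12 called genes of the linked lists, each point a library (1 to 3 from left to right within a group), with the mean and SD of 3 libraries as line and bar; transport is left of control and axes start at 0. The groups do not overlap in any panel, and 9 genes are higher and 3 (GLUT1-like, TXNIP-like and pdk3) lower in transport.

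The remaining lists were the citrate cycle, the pentose phosphate pathway, glycogen metabolism, pyruvate entry and carboxylation, and the glycerol and fructose branch. In the citrate cycle 2 of 22 tested genes rose and none fell, or 9.09% called, against 6.69% of all genes. The log2 fold change was positive for 20 of the 22, against 10418 of 20771 genes tested, and its median was 0.23, against 0.00 over all genes. Mitochondrial idh2 had 75.01, 85.16 and 95.18 FPKM in transport and 49.31, 59.68 and 52.75 FPKM in control libraries (log2 fold change 0.64, SE 0.13, edgeR adjusted p = 0.0354), a call lost without any 1 library but control 2. A cytosolic MDH1-like gene (LOC113663570) had 40.67, 37.67 and 38.86 FPKM after transport and 27.90, 29.96 and 27.85 FPKM in controls (log2 fold change 0.43, SE 0.10, edgeR adjusted p = 0.0449), a call lost without any 1 library. Those fits gave edgeR adjusted p-values of 0.0531 to 0.171 for idh2 and MDH1-like. The other cytosolic MDH1-like gene (LOC113640496) was more abundant, with 149.71 to 193.75 FPKM in transport and 166.22 to 199.83 FPKM in controls. Its groups overlapped, and it was not called (log2 fold change -0.06, SE 0.13, edgeR adjusted p = 0.842).

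Of 12 pentose phosphate genes, 1 rose, or 8.33% called, against 6.69% of all genes tested. It was rpia, the ribose-5-phosphate isomerase, with 23.57, 24.40 and 24.77 FPKM in transport and 16.20, 15.62 and 14.14 FPKM in control libraries (log2 fold change 0.64, SE 0.10, edgeR adjusted p = 0.0213). Its call was lost without control 3 or transport 1, 2 or 3 (edgeR adjusted p 0.0571 to 0.129). None was called among 25 tested genes of glycogen metabolism, 8 of pyruvate entry and carboxylation and 5 of the glycerol and fructose branch. Of these, 4, 2 and 0 had an unadjusted edgeR p under 0.05, against 5200 of 20771 genes tested. DESeq2 called 2, 2 and 0, against 17.5% of all genes it tested. Nearest were stbd1, a glycogen-binding protein, at 0.90, 1.22 and 1.13 FPKM in transport and 0.54, 0.31 and 0.36 FPKM in control libraries (edgeR adjusted p = 0.0514), and the pyruvate carrier subunit mpc2. Mpc2 had 90.44, 100.67 and 104.83 FPKM in transport and 62.65, 75.57 and 74.25 FPKM in control libraries, without overlap (log2 fold change 0.46, edgeR adjusted p = 0.0640).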

How the data were processed

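The authors deposited, per the file headers, an FPKM value and a count for each of 25792 genes in 6 libraries. Per the submitters' processing notes they used HISAT and StringTie, without versions. The sources used here give neither their settings nor the genome build. The whole-number deposited counts are treated as estimated counts, because in each library 417 to 485 genes had a value of 4 and 79 to 113 a value of 3, so that about 4 units may stand for 1 fragment. Reads of near-identical copies and of overlapping genes cannot be told apart in these values.

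Transport was compared with control by the two-sided quasi-likelihood F test of edgeR 4.0.16 (R 4.3.3), with TMM scaling, filterByExpr (minimum count 10, minimum total 15), no covariates, and Benjamini-Hochberg adjustment over 20771 genes. SEs were computed as the log2 fold change over the square root of F. The members, the lists and the muscle rule were chosen with earlier results of these data known. Named genes were all members called, all muscle-type members, for each enzyme step the most abundant and the lowest-p member, and up to 3 called genes of each linked list; others named near the threshold or for their pattern, and the called genes beyond 3 in the regulator list, were chosen after their values were seen. Alternatives used DESeq2 1.42.0, limma 3.58.1, other scalings and filters, a muscle score as covariate and fits with libraries left out. The code was tested on simulated data. No sequences are shown, since none were used here.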

Additional observations from a re-analysis of the deposited data

How the results depend on the processing

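Counts of genes called depended more on which libraries entered than on scaling. RLE and upper-quartile scaling gave the same 8 members and 12 linked genes called, by count, as TMM. DESeq2, which called 17.5% of all genes it tested, called 16 members (4 higher, 12 lower) and 24 linked genes (18 higher, 6 lower). Members called higher numbered 2 with counts divided by 4, with limma on log2(FPKM + 1) or log2(FPKM + 0.1), and with the muscle score as covariate. Over all genes these fits called more than the main fit, 1675, 1455, 1469 and 1643 in that order, against 1389. With 1 library left out, 0 to 6 members were called (0 to 1 higher, 0 to 5 lower), and 0 to 9 linked genes (0 to 7 higher, 0 to 2 lower). Over all genes these fits called 3 to 1498, against 1389 with all libraries. With control 1 and transport 3 left out, an alternative chosen after seeing the data, 2 members (0 higher, 2 lower) and 2 linked genes (0 higher) were called, and 372 genes in all.

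Same-numbered libraries did not deviate together (correlations -0.0735, -0.0296 and -0.0441). With 3 libraries a group these correlations cannot exclude a pairing, and the labels do not say whether the replicate numbers pair the libraries. With the replicate block, 0 members and 0 linked genes were called (0 higher and 0 lower in each), and 14 genes in all. At an unadjusted edgeR p under 0.05 the block left 18 members and 29 linked genes. Without the block these were 22 and 33, with 5200 of the 20771 genes tested.

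Of 680 refitted values of 38 named members, 586 kept direction and side of the threshold, 53 lost the call, 1 gained it and 40 changed sign. Of 197 values of 11 linked genes, the numbers were 137, 51, 9 and 0. No called gene among them changed sign. For genes that were not called, log2 fold changes turned as follows. Eno3 was 0.01 in all 3 limma fits and 0.27 with the replicate block, and g6pc3 was 0.00, 0.01 and 0.00 in the limma fits. With control 1 and transport 3 left out, eno3 was 0.53, LOC113657219 -0.05, pgam1 -0.02, pdhb -0.00, LOC113648560 -0.09 and galm -0.03. With 1 library left out, log2 fold changes ranged from -0.40 to 1.96 for pfkm, -0.51 to 1.38 for aldoa, -0.87 to 1.21 for eno3, -1.04 to 0.52 for LOC113638567 and -0.20 to 0.62 for LOC113637689. The ranges were -0.55 to 1.43 for gapdh, -0.46 to 0.29 for pgm1, -0.44 to 0.14 for tpi1, -0.02 to 0.16 for LOC113657219 and -0.02 to 0.15 for pgam1. For LOC113648560 the range was -0.04 to 0.10, for g6pc3 -0.27 to 0.29, for galm -0.06 to 0.09 and for acss2 -0.20 to 0.05. The cause was not tested. What size of difference could be detected in members below 1 FPKM was not measured.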

Other observations

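Several values stood apart for 1 library or 1 neighbouring gene. Of 17 liver marker genes, 6 had at least 1 FPKM in control 1 and 1 in each other library. Their summed level was 7.10 to 8.47 FPKM in transport libraries and 25.2, 5.59 and 5.13 FPKM in control libraries. The muscle score, as a mean log2 level centred over the libraries, was -0.94, 0.34 and 0.74 in transport and 1.23, -0.86 and -0.51 in control libraries.

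Of the 85 members, 12 lie over another gene of the table. The fructose-bisphosphatase 2-like gene (LOC113637689) shares 265 bases with a cathepsin L1-like gene on the other strand (LOC113637690), a lysosomal protease. That neighbour had 102.55, 98.83 and 98.98 FPKM in transport and 48.37, 55.85 and 46.09 FPKM in control libraries, and rose (log2 fold change 0.98, SE 0.10, edgeR adjusted p = 0.00893). It was picked out after its values were seen.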
